A study of Homo sapiens with 68 samples.

Results

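HNRNPA1 encodes hnRNPA1, the protein that the first of the study's 4 antibodies pulls down, so its transcript shows how an RNA-binding protein and 3 other RNA-binding proteins sit on the protein's own message. The members were all peaks listed under ENSG00000135486, the HNRNPA1 identifier, or ENSG00000258344, a longer identifier on the same strand. The lists hold 3333 such peaks, 1150 of the shorter and 2183 of the longer identifier. Every peak of the shorter identifier shared a base with a peak of the longer in the same library, so 2183 positions were kept, of 15800601 listed peaks in all 68 libraries. The gene was selected on the peaks and reads it had in earlier results of these data, and the comparison of its own antibody with the others is therefore given as a description with no test.

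hnRNPA1 is an abundant nuclear protein that binds single-stranded RNA through RNA recognition motifs and often acts as a splicing repressor. Many proteins of this kind bind their own pre-mRNA, and hnRNPA1 is known to affect the splicing of an alternative exon in its own transcript. hnRNP C binds uridine-rich stretches of pre-mRNA, hnRNPI (PTBP1) binds pyrimidine-rich tracts, and RBFOX2 binds a short motif that contains GCAUG. HNRNPA1 has many processed pseudogenes with nearly the same exon sequence, and how reads that match several places were assigned is not given in the sources used here, so read numbers over its exons are uncertain.

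The assay was TLC-CLIP, in which RNA is crosslinked to protein by ultraviolet light, trimmed by RNase, immunoprecipitated with its protein and sequenced. All libraries came from HEK293T, a human embryonic kidney line, as 34 groups of 2 replicates. For hnRNPA1, hnRNP C (hnRNPc in the labels), hnRNPI and RBFOX2 (antibody RBM9), there were crosslinked libraries of 50000 cells with 0.005 U of RNase and gel purification of the complexes (PAGE; lowRNase), without the gel (noPAGE), and without the gel with RecJ, an exonuclease that degrades single-stranded DNA (noPAGE RecJ). Each antibody also had libraries titled as not crosslinked, with the gel (noUV) and without it (noUV noPAGE). Further crosslinked groups were mediumRNase (0.025 U) for hnRNPA1 and hnRNPc, 10k (10000 cells, 0.001 U) and 1k (1000 cells, 0.0001 U) with the gel for hnRNPc and RBFOX2, and 5k and 500 without it for hnRNPc, the latter 2 labelled as 50000 cells. Other gel regions, 4 between 50 and 250 kDa, were also cut from hnRNPc immunoprecipitates of 10000 cells (Background groups). No source says whether replicates came from separate cultures, so their spread may be technical.

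The depth of sequencing is unknown, and the lists differ in length. The 44 crosslinked libraries outside the other gel regions list 3268 to 523402 peaks, the 16 libraries without crosslinking 18690 to 299616, and the 8 other gel regions 303 to 6716. The list of 3268 peaks belongs to replicate 1 of hnRNPc lowRNase, whose replicate 2 lists 214849. Libraries without crosslinking, of 10k and 1k cells and of other gel regions carry accessions from a separate run, so a batch that this run may reflect and those conditions cannot be told apart.

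In hg19, peaks of the HNRNPA1 identifier span chr12:54674542-54680470 on the plus strand, 5929 nt. Of the 2183 positions, 1539 lay in this stretch. Another 616 lay downstream at chr12:54707119-54738004, where 548 (89.0%) were overlapped by peaks listed under a further identifier, ENSG00000111481. The downstream peaks had a median of 10 reads and at most 66, against a median of 41 and at most 1380 in the HNRNPA1 stretch. The remaining 28 positions, in 22 libraries, lay at chr12:54680480-54683286. Counts of positions and shares below include all of them, windows and covered bases only those of the HNRNPA1 stretch, and exon or intron annotation was not used here. Reads of a peak are the last number in its deposited name, read as the reads over that peak.

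The hnRNPA1 antibody listed 34 and 42 positions on its own transcript with lowRNase, 42 and 45 with noPAGE and 40 and 39 with noPAGE RecJ. hnRNPc listed 46 and 57 positions with noPAGE and 49 and 59 with noPAGE RecJ. Its lowRNase libraries listed 6 and 31, the 6 being in the list of 3268 peaks. hnRNPI listed 24 and 25 with lowRNase and 41 and 45 with noPAGE, and RBFOX2 27 and 28 with lowRNase and 39 and 44 with noPAGE. By the number of all positions, the own antibody therefore did not stand apart from the others. Positions per 10000 listed peaks overlapped too, while 0.497% of 13896 genes had all 6 hnRNPA1 libraries above the 18 others and 1.1% had them below. In the HNRNPA1 stretch alone, hnRNPA1 listed 25 and 26 positions with lowRNase, 32 and 39 with noPAGE and 34 and 33 with noPAGE RecJ. In the same order, hnRNPc listed 6 and 22, 28 and 31, and 27 and 29 there. hnRNPI listed 12 and 11, 19 and 20, and 23 and 15, and RBFOX2 25 and 23, 38 and 40, and 38 and 38. In the stretch, the own antibody thus lay above hnRNPc and hnRNPI in each protocol, but not above RBFOX2.

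With crosslinking, its peaks held more of the reads. HNRNPA1 held 4.97 and 5.26 of every 10000 reads in all listed peaks in hnRNPA1 lowRNase, 5.81 and 5.93 in noPAGE and 5.53 and 5.06 in noPAGE RecJ. For hnRNPc the shares were 2.40 and 2.68 in noPAGE and 2.40 and 2.35 in noPAGE RecJ. In hnRNPc lowRNase they were 12.1 in the short list and 3.72 in the other replicate. For RBFOX2 they were 2.52 and 3.11 in lowRNase, 2.51 and 2.52 in noPAGE and 2.22 and 2.48 in noPAGE RecJ. The lowest shares were those of hnRNPI, 0.731 and 0.693 in lowRNase, 0.971 and 0.996 in noPAGE and 0.896 and 0.793 in noPAGE RecJ. Apart from the short hnRNPc list, all 6 hnRNPA1 libraries lay above the 17 others, as they did for 4.45% of 13896 genes. With the short list included, they overlapped, and 3.55% of genes had all 6 above the 18 others. Without crosslinking or the gel, hnRNPA1 held 17.8 and 18.3 and hnRNPc 11.9 and 18.8. There, hnRNPI held 1.72 and 2.17 and RBFOX2 5.44 and 5.55. Without crosslinking but with the gel, hnRNPA1 held 13.2 and 10.6 and hnRNPc 8.89 and 19.1, and hnRNPI and RBFOX2 lay below these. Without crosslinking, the own antibody thus also lay above hnRNPI and RBFOX2 but overlapped with hnRNPc. The part of crosslinking in its excess was not tested.

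On the scale of log2(reads + 0.5) per 10000, hnRNPA1 exceeded the mean of the other proteins by 1.48 over the 3 protocols, and the median over all genes was 0.78. Counted as positions per 10000 listed peaks, the difference was -0.98, and the median over all genes -0.039. The sign thus depended on whether reads or positions were counted. Positions per 10000 went down as lists became longer, with a Spearman correlation of -0.89 over the 52 libraries labelled 50000 cells, which share antibodies and protocols, and the part of list length in the difference was not tested. By its summed reads, HNRNPA1 ranked among the top 0.585% and 0.556% of genes in the hnRNPA1 noPAGE libraries and 23.4% and 23.0% in hnRNPI lowRNase.

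**Figure D1:**
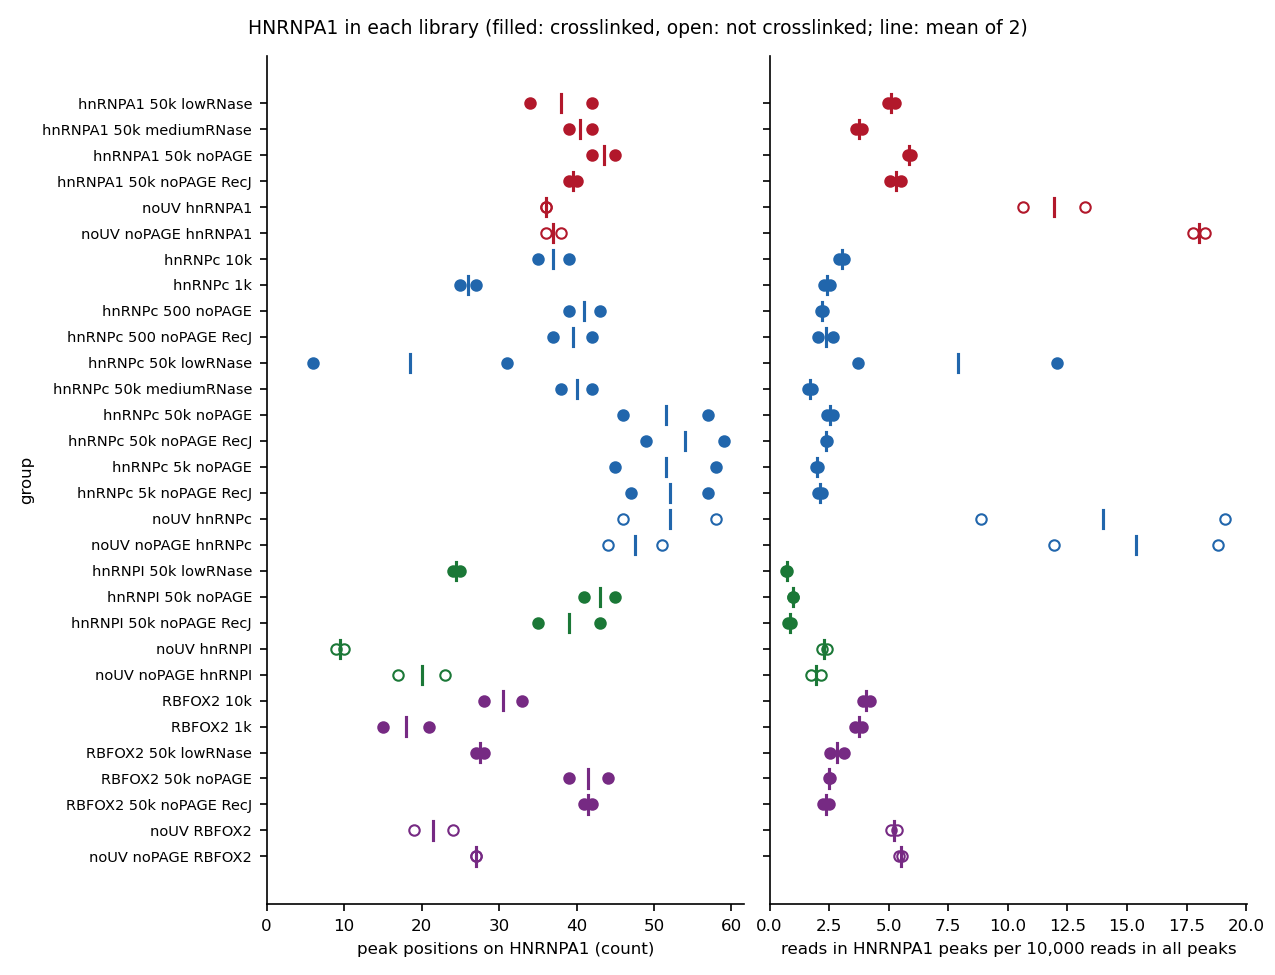
Peak positions on HNRNPA1 (left, count) and reads in its peaks per 10,000 reads in all peaks (right) for each library (points) of 30 groups, with the mean of 2 replicates as a line. Filled points are crosslinked and open points are not. The hnRNPA1 libraries without crosslinking sit between 10.6 and 18.3 reads per 10,000, above the crosslinked ones at 3.64 to 5.93.

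In most groups, replicates placed their peaks on HNRNPA1 at largely the same bases. Over all groups, 72.0% of the positions were overlapped by the other replicate by at least 1 nt, against 46.9% over all listed peaks and 23.8% after HNRNPA1 peaks were moved by 1000 nt. The percentage was above that of the group's whole list in 27 of the 31 groups with a peak. For hnRNPA1, it was 69.7% in lowRNase, 78.2% in noPAGE and 95.9% in noUV noPAGE. For hnRNPI, it was below that of the list in lowRNase (42.9% against 43.7%), noPAGE RecJ (51.3% against 57.5%) and noUV (0.0% against 14.0%). It was above that of the list in hnRNPI noPAGE (69.8% against 58.5%) and noUV noPAGE (80.0% against 43.8%). For hnRNPI positions in the HNRNPA1 stretch alone, it was 56.5% in lowRNase and 63.2% in noPAGE RecJ, both above the list. In noUV, it was 0.0% there too. No position overlapped between the noUV hnRNPI replicates, whose lists of 18690 and 36809 peaks held 9 and 10 positions.

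The place of the strongest peak differed between antibodies and, for each antibody, also between groups of its libraries. For hnRNPI, it was at the same place in all crosslinked libraries and elsewhere in those without crosslinking. It also differed between the noUV hnRNPI replicates. Replicate 1 had at most 5 reads in a peak, as at chr12:54676438-54676449, and replicate 2 had 17 at chr12:54678040-54678102. For each protein, 3 peaks were named from its noPAGE libraries and 2 from its lowRNase libraries by their read numbers, and those sharing at least 50% of the shorter one were joined into 10 windows, of which windows 7 and 8 still overlap at their ends. The lowRNase peaks were added after the data were seen. A window's value in a library is the reads of its best peak sharing at least 50% of the shorter interval, given as a percentage of the library's strongest HNRNPA1 peak, and 0 means that no such peak was listed. A high value in a library that chose the window is a consequence of that choice, and the other groups were not used in choosing.

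With the gel, the strongest peaks of the own antibody lay near the 3′ end of the stretch. Window 8 (chr12:54679788-54679898) held the strongest peak in both hnRNPA1 lowRNase libraries, with 545 and 520 reads, and window 9 (chr12:54679950-54680098) held 498 and 403. In mediumRNase, not used to choose them, window 8 held 107 and 128 reads and window 9 held 145 and 174, while the strongest peak lay in window 10 (chr12:54680318-54680451) with 155 and 183. In noPAGE, window 8 held 441 and 469 reads and window 9 held 644 and 421. In noPAGE RecJ, not used, they held 278 and 401 and 427 and 456. Without the gel, window 4 held the strongest peak in 3 of these 4 libraries. Both windows 8 and 9 carried over 50% of the strongest peak in every crosslinked hnRNPA1 library. Window 9 was not particular to hnRNPA1. hnRNPc, from which it was also chosen, listed it in 17 of 20 crosslinked libraries and had its strongest peak there in both lowRNase libraries, with 13 and 129 reads. RBFOX2 listed it in 6 of 10, with 117 and 91 reads at 10k, where the strongest peak held 141. No hnRNPI library with crosslinking listed a peak in window 8 or 9.

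Window 6 (chr12:54679258-54679366) was where hnRNPI peaked. It held the strongest HNRNPA1 peak in 6 of 6 crosslinked hnRNPI libraries, with 90 and 77 reads in lowRNase, 164 and 132 in noPAGE and 121 and 134 in noPAGE RecJ. None of the 4 hnRNPI libraries without crosslinking listed a peak there. In hnRNPA1 libraries, window 6 had no peak in lowRNase and held 73 and 202 reads in noPAGE, 11.3% and 32.3% of the strongest peak. RBFOX2 listed it in all 10 crosslinked libraries, at up to 45.4% of the strongest.

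RBFOX2 had its strongest peak in window 7 (chr12:54679672-54679808) in all 6 of its 50k crosslinked libraries, with 237 and 294 reads in lowRNase and 169 and 162 in noPAGE. In the 4 libraries of 10k and 1k cells it was in window 2 (chr12:54676688-54676815) instead, with 141 and 141 reads at 10k and 52 and 38 at 1k. Window 2 had held 79.7% and 64.6% of the strongest peak in RBFOX2 lowRNase. hnRNPA1 listed peaks in window 7 in all 12 of its libraries, with 271 and 289 reads in lowRNase. hnRNPc listed window 7 in 10 of 20 crosslinked libraries, at up to 69.2% of the strongest peak, in the short list. No hnRNPI library listed a peak in it.

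Window 5 (chr12:54678612-54678660) was the place most often strongest in the hnRNPc lists. It had a peak in all 20 crosslinked hnRNPc libraries outside the other gel regions, and it was the strongest in 13 of them. In the 10k and 5k libraries, which were not used to choose it, it held 133 and 71 reads at 10k and 151 and 184 at 5k noPAGE. In mediumRNase, it was at 38.8% and 31.5% of the strongest peak. RBFOX2 listed it in 6 of 10 crosslinked libraries with up to 47 reads, and hnRNPI in 2 of 6 with up to 10. No hnRNPA1 library listed a peak there. Unlike window 6 for hnRNPI, window 5 was also strong without crosslinking, with 730 and 484 reads in noUV hnRNPc and 410 and 313 in noUV noPAGE hnRNPc. Near the 5′ end, window 1 (chr12:54674900-54675064) had a peak in all 20 crosslinked hnRNPc libraries and in 41 of the 44 crosslinked libraries of all antibodies, but in 0 of the 16 without crosslinking.

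**Figure D2:**
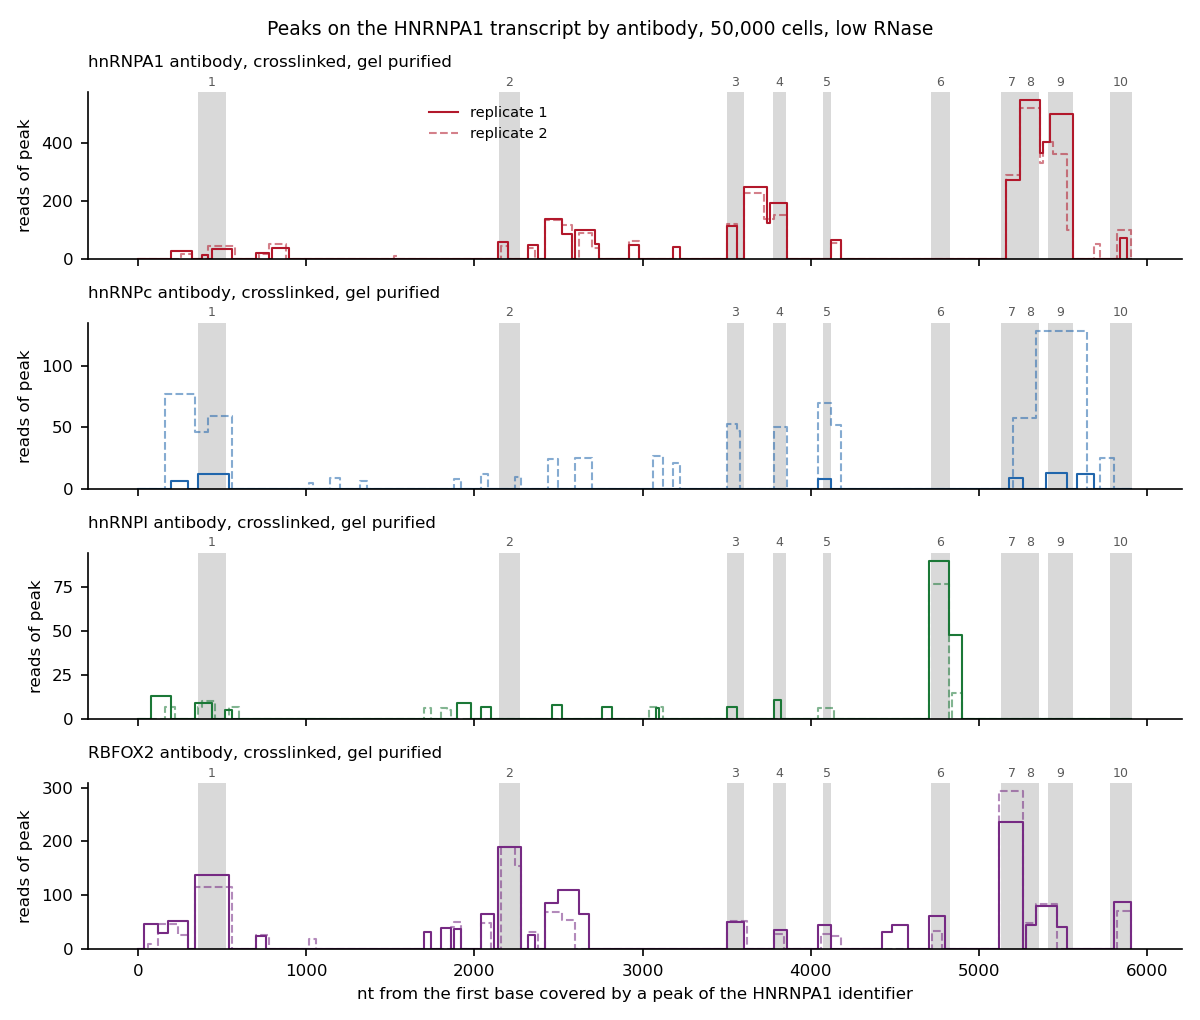
Reads of the listed peaks (vertical, highest in each 20-nt bin) along the HNRNPA1 stretch (horizontal, nt from the first base of a peak) in the lowRNase libraries of 4 antibodies, replicate 1 solid and replicate 2 dashed, each panel with its own scale. Grey bands are windows 1 to 10. The highest peak is in window 8 for hnRNPA1 (545 and 520 reads), window 9 for hnRNPc (13 and 129), window 6 for hnRNPI (90 and 77) and window 7 for RBFOX2 (237 and 294).

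Windows 3 and 4 had peaks in 41 of the 44 crosslinked libraries and were among the strongest of the hnRNPA1 lists without the gel. Window 3 (chr12:54678044-54678143) held 112 and 121 reads in hnRNPA1 lowRNase and 586 and 587 in noPAGE. Window 4 (chr12:54678317-54678392) held 191 and 150 reads in lowRNase and 641 and 625 in noPAGE. As shares of the strongest peak, window 3 went from 20.6% and 23.3% to 91.0% and 93.9%, and in noPAGE RecJ, not used to choose it, it was 97.1% and 93.4%. In mediumRNase with the gel, it was 7.10% and 9.29%. Each group without the gel was therefore above each group with it among the crosslinked hnRNPA1 libraries.

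Without crosslinking, window 3 was the strongest place for the hnRNPA1 antibody. It held 732 and 513 reads in noUV hnRNPA1 and 1278 and 1380 in noUV noPAGE hnRNPA1, and window 4 held 602 and 451, then 1069 and 1257. Over all antibodies, window 3 held the strongest HNRNPA1 peak in 11 of 16 libraries without crosslinking and in 0 of 44 crosslinked ones. Window 8 went the other way in the hnRNPA1 lists. It had no peak in noUV hnRNPA1, and in noUV noPAGE it held 38 reads in replicate 1 and had no peak in replicate 2. Window 9 held 121 and 83 reads in noUV hnRNPA1 and 115 and 110 in noUV noPAGE, 7.97% to 16.5% of the strongest peak. As read numbers are not scaled for depth, these are set side by side as shares of each library's own strongest peak.

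**Figure D3:**
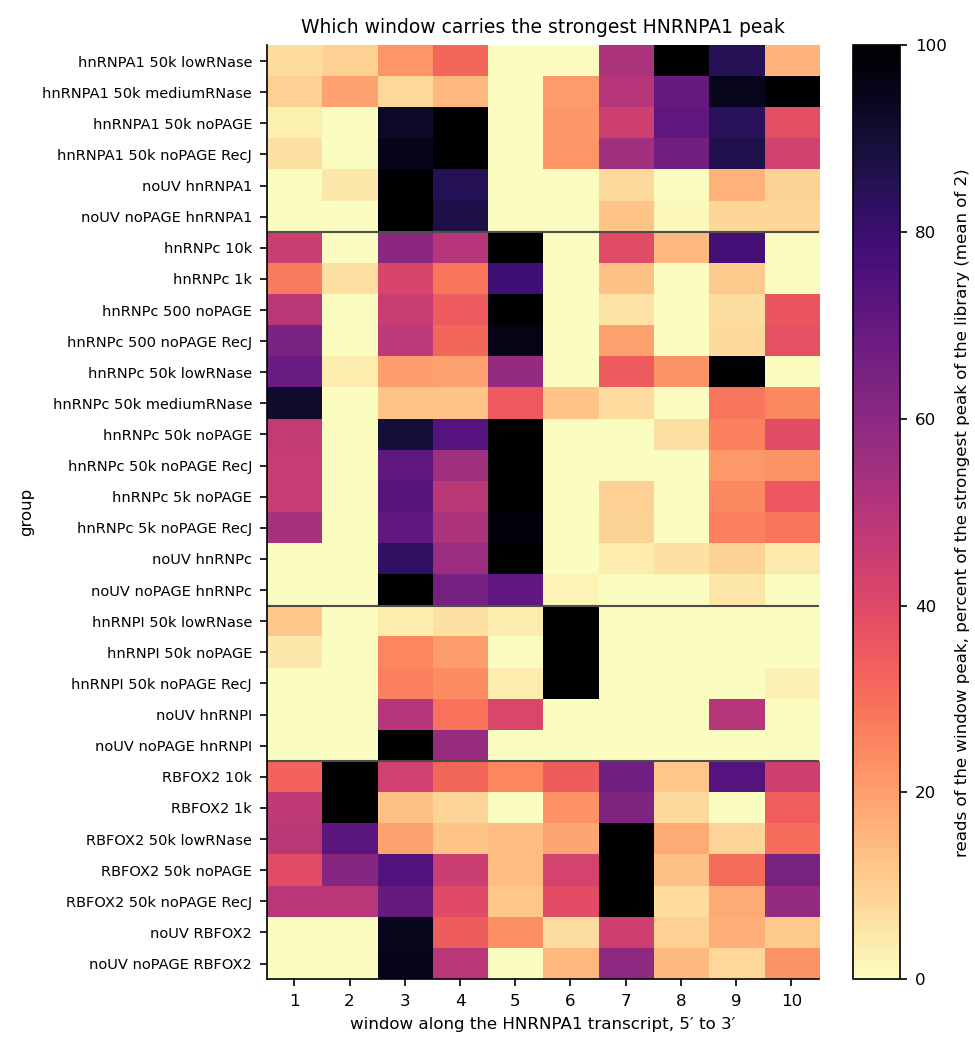
Mean of 2 replicates of each window's reads as a percentage of the library's strongest HNRNPA1 peak (colour, 0 to 100), for windows 1 to 10 (horizontal, 5′ to 3′) and 30 groups (vertical). hnRNPI is dark in window 6 with crosslinking, RBFOX2 in windows 2 and 7, most hnRNPc groups in window 5, and window 3 is dark in groups without crosslinking.

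Some bases were covered in every crosslinked 50k library of a protein. For hnRNPA1, 743 nt (12.5% of the stretch) were covered in all 8 such libraries, in 15 pieces, of which the longest was chr12:54679808-54679965 (158 nt), followed by chr12:54679981-54680095 (115 nt). hnRNPc had 255 nt in 8 libraries, hnRNPI 163 nt in 6 and RBFOX2 770 nt in 6. Of the hnRNPA1 bases, 182 nt were also common to the RBFOX2 libraries, which is 24.5% of the hnRNPA1 and 23.6% of the RBFOX2 bases. None were shared with hnRNPc or with hnRNPI. RBFOX2 shared 107 nt with hnRNPc, 42.0% of the hnRNPc bases, and 56 nt with hnRNPI, 34.4% of the hnRNPI bases. In all, 561 nt were common to the hnRNPA1 libraries alone. The longest hnRNPI piece, chr12:54679258-54679351 (94 nt), lies in window 6. The hnRNPc figure is limited by the short list, which covered 526 nt, since with 1 library allowed to miss a base it was 646 nt. The lack of bases shared by hnRNPA1 and hnRNPc and the 561 nt of hnRNPA1 alone rest on the same list, and sharing was not counted without it.

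For hnRNPA1, covered bases differed more between crosslinked and other libraries than between replicates. Among bases covered in either library of a pair, 79.6% were covered in both hnRNPA1 lowRNase replicates and 79.8% in both noUV hnRNPA1 replicates. Between these groups, the mean over 4 pairs was 19.4% (18.6% to 20.2%). Without the gel, replicates shared 68.6% (noPAGE) and 88.3% (noUV noPAGE), and the groups shared 33.5% (32.6% to 34.7%). Between hnRNPA1 lowRNase and noPAGE, the mean was 53.6%. With the gel, this order did not hold for hnRNPI, whose noUV replicates shared 0.0% against 5.41% between groups. For hnRNPc, the lowRNase replicates, which include the short list, shared 30.7%, within the range of 11.4% to 31.0% between groups. By the mean over pairs, antibodies were less alike with crosslinking than without it, both with and without the gel. hnRNPA1 and hnRNPI shared 18.2% of covered bases in noPAGE and 41.6% in noUV noPAGE, hnRNPA1 and hnRNPc 28.3% and 45.5%, and hnRNPA1 and RBFOX2 37.1% and 57.4%. With the gel, in lowRNase and noUV, the same pairs shared 4.99% and 14.5%, 28.7% and 47.6%, and 38.4% and 40.1%. The ranges of the last pair overlapped. With the gel, so did the ranges of every pair of antibodies without hnRNPA1. Their means in lowRNase and noUV were 11.3% and 15.2% for hnRNPc and hnRNPI and 31.0% and 37.2% for hnRNPc and RBFOX2. For hnRNPI and RBFOX2 they were 16.1% and 16.8%.

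**Figure D4:**
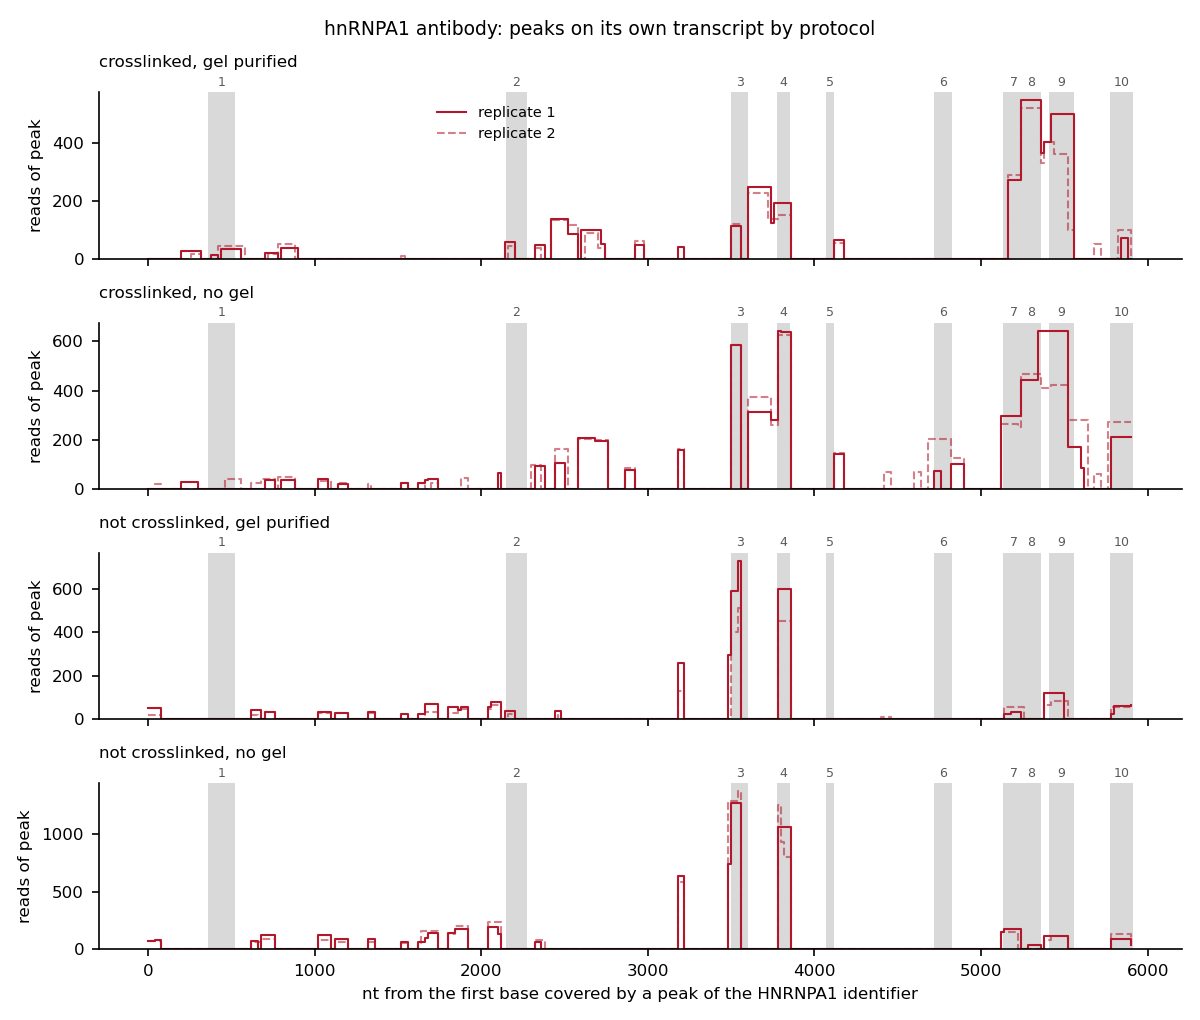
Reads of the listed peaks (vertical, highest in each 20-nt bin, unscaled) along the HNRNPA1 stretch (horizontal, nt) for the hnRNPA1 antibody with or without crosslinking and gel, replicate 1 solid and replicate 2 dashed. With crosslinking and the gel, windows 8 and 9 stand out. With crosslinking and no gel, windows 3, 4, 8 and 9 stand out, and without crosslinking windows 3 and 4 stand out, window 3 with 513 to 1380 reads.

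Peak ends repeated to the base across libraries of different antibodies. A peak started at chr12:54676584 in 35 libraries, 14 of the 16 without crosslinking, 13 of 24 crosslinked without the gel and 8 of 20 crosslinked with it. Another start, at chr12:54675579, was found in 14, 8 and 2 of these libraries, and the end at chr12:54676449 in 13, 10 and 5. The start at chr12:54678333, in window 4, was found in 12, 7 and 1. These 4 ends were more frequent without crosslinking, but others were not. The start at chr12:54678042 was found in 8, 17 and 5 libraries, and the start at chr12:54678332, the base next to chr12:54678333, in 3, 7 and 6. Close to chr12:54678042, the start at chr12:54678041 was found in 6, 4 and 0 libraries and that at chr12:54678044 in 7, 2 and 2. These are counts at exact bases, and neighbouring starts were not joined. Whether they are exon boundaries was not tested.

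Without the gel, the share of listed peaks on HNRNPA1 rose when crosslinking was left out, while the number of all positions, downstream ones included, did not. From noPAGE to noUV noPAGE, the mean number of positions fell from 43.5 to 37.0 for hnRNPA1 and from 51.5 to 47.5 for hnRNPc. It fell from 43.0 to 20.0 for hnRNPI and from 41.5 to 27.0 for RBFOX2. For hnRNPI, the fall lay mostly downstream, where the mean number went from 23.5 to 2.5. In the HNRNPA1 stretch alone, the mean number went from 19.5 to 17.5 for hnRNPI and from 35.5 to 32.5 for hnRNPA1. There it fell for RBFOX2 too, but rose from 29.5 to 36.5 for hnRNPc. Positions per 10000 listed peaks were 0.841 and 0.860 in hnRNPA1 noPAGE and 2.11 and 1.83 in noUV noPAGE, and no library of the first group reached the second. The groups also did not overlap for the other 3 antibodies. The mean difference on the scale of log2(positions + 0.5) per 10000 was 1.11 over 4 antibodies and 16 libraries (higher in 4 of 4 antibodies, 0.88 to 1.46; exact two-sided permutation test within antibodies, p = 0.00154, the smallest it can give; Benjamini-Hochberg adjusted p = 0.00897 over genes and 0.00617 over the 4 comparisons tested). Of 13285 genes tested, 22.7% were called higher and 14.9% lower, and the median difference over genes was 0.14. Lists without crosslinking were also shorter, at a median of 112930 peaks against 310076 over the crosslinked libraries, and the part of list length in the result was not tested. The share of reads rose by 1.57 (exact permutation test, adjusted p = 0.00735 over genes), and 6.78% of genes were called higher and 30.5% lower by reads, with a median of -0.88. By antibody, the share of reads was 3.07 times as high for hnRNPA1, 5.90 times for hnRNPc, 1.97 times for hnRNPI and 2.19 times for RBFOX2.

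With the gel, the same comparison did not pass by positions. The mean difference was 1.25, higher in 3 of 4 antibodies (exact permutation test, p = 0.0833, adjusted p = 0.344 over genes and 0.167 over the 4 comparisons). No gene of 12508 passed after adjustment (0.0% called), while 18.2% had an unadjusted p under 0.05. At the smallest p this test can give, 387 genes would have to share it for any to pass. The exception among antibodies was hnRNPc, at -1.63. Without its short list, the difference was 1.72, with an adjusted p of 0.0235 by the exact permutation test, and the range over all alternatives was 0.0235 to 0.774. By reads, HNRNPA1 rose by 1.19 (exact permutation test, p = 0.00309, adjusted p = 0.0378 over genes), where 2.01% of genes were called higher and 8.66% lower. In noUV hnRNPA1, the shares were 13.2 and 10.6 reads per 10000.

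**Figure D5:**
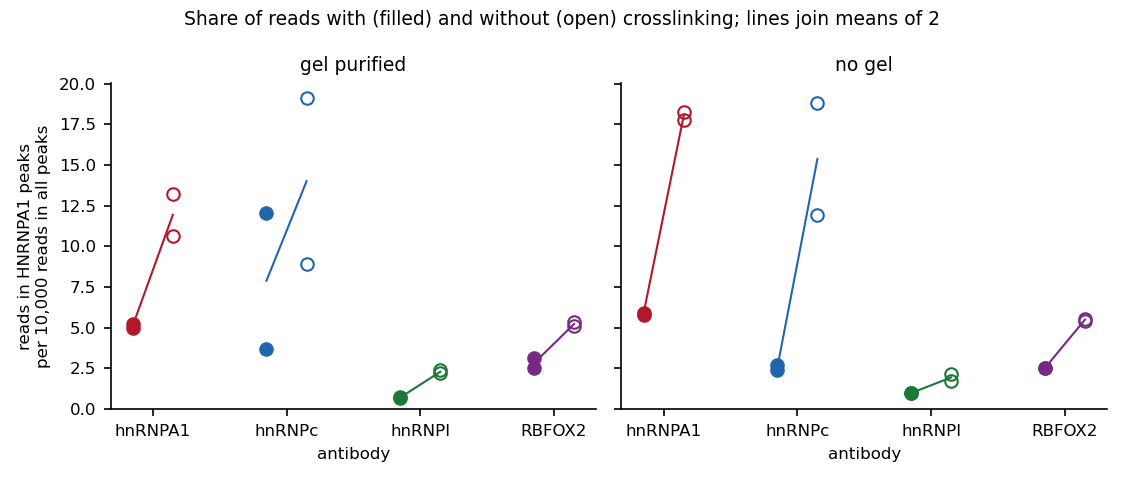
Reads in HNRNPA1 peaks per 10,000 reads in all listed peaks (vertical) for each antibody (horizontal), with the gel (left) and without it (right). Points are libraries, filled when crosslinked and open when not, and lines join means of 2. Without the gel, every open point is above the filled points of its antibody, with 17.8 and 18.3 against 5.81 and 5.93 for hnRNPA1.

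Leaving out the gel did not pass the test. The mean difference in the share of peaks between noPAGE and lowRNase was -0.082 over 4 antibodies (exact permutation test, p = 0.983, adjusted p = 1.0 over genes and 0.983 over the 4 comparisons). It was 0.19 for hnRNPA1, 0.60 for hnRNPI and 1.13 for RBFOX2, and -2.25 for hnRNPc. Without the short hnRNPc list the mean was 0.39 (adjusted p = 0.324 by the exact permutation test; 0.217 to 1.0 over all alternatives). No gene of 13928 was called (0.0%), and 8.93% had an unadjusted p under 0.05. The groups of hnRNPA1 did not overlap, but their shares of reads differed by a factor of 1.15. In the hnRNPA1 lists, window 3 went from 20.6% and 23.3% to 91.0% and 93.9% of the strongest peak between the same groups.

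RecJ moved the share of peaks by 0.050 (24 libraries in 6 pairs of groups, higher in 3; exact permutation test, p = 0.431, adjusted p = 0.934 over genes and 0.575 over the 4 comparisons). No gene of 13657 was called (0.0%), and 6.12% had an unadjusted p under 0.05. For hnRNPA1, the difference was -0.019.

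RNase and cell number are described with no test. From lowRNase to mediumRNase, the share of reads on HNRNPA1 went from 4.97 and 5.26 to 3.87 and 3.64 per 10000 in the hnRNPA1 libraries, and the positions per 10000 listed peaks from 0.660 and 0.837 to 1.15 and 0.954. In both measures the groups did not overlap. hnRNPc noPAGE held 2.40 and 2.68 reads per 10000 at 50k, 1.96 and 2.05 at 5k and 2.17 and 2.25 at 500. With the gel, hnRNPc held 3.13 and 2.93 at 10k and 2.54 and 2.27 at 1k, and RBFOX2 4.20 and 3.92 at 10k and 3.90 and 3.58 at 1k, the RNase amount falling with the number of cells. Of the gel regions other than the main one, 3 listed no HNRNPA1 peak, in lists of 303 to 1802 peaks. The region of 75 to 100 kDa listed 4 and 2 positions in lists of 6716 and 4875 peaks, none of over 8 reads.

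By the share of listed peaks over the 52 libraries labelled 50000 cells, the genes most like HNRNPA1 were ENSG00000234741 (Spearman 0.94) and ENSG00000156508 (0.92), among 12981 genes compared. Both shares also went down with list length, with correlations of -0.90 and -0.84, against -0.89 for HNRNPA1.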

How the data were processed

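The 68 peak lists were analysed as deposited by the authors. Each has 8 columns and no header: position, strand, name, p-value and an inner interval. The p-value of each peak is the deposited value of the authors' peak caller, CLIPper per the file names. The submitters' processing notes name hg19, bcl2fastq, STAR 2.7.3a and UMI-tools 1.0.1; the peak caller settings and the annotation release are not stated there. Sequenced depth is unknown, so no counting interval can be given.

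Peaks of both identifiers sharing a base were counted as 1 position. Shares were positions per 10000 listed peaks, as log2 with 0.5 added. Groups were compared by exact two-sided permutation within antibodies (Python 3.11.15, numpy 2.4.6), on every gene with a peak in at least 50% of the libraries compared, with Benjamini-Hochberg adjustment over genes. The code was tested on simulated data. Peaks were named by read number: for each protein the 3 highest in noPAGE, and the 2 highest in lowRNase, by the lower of both replicates and at least 30 nt apart. The most similar genes were the highest in Spearman correlation. Members, lists and tests were chosen with earlier results of these data known. The list of family genes was not used, since no table here pairs their symbols with Ensembl identifiers.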

Additional observations from a re-analysis of the deposited data

Results flagged for a closer look

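Leaving out the gel moved the share of listed peaks on HNRNPA1 in opposite directions for hnRNPc and for the other antibodies, with every noPAGE library on one side of the lowRNase libraries. The log2 difference was larger by 2.44 for hnRNPA1 than for hnRNPc, by 2.86 for hnRNPI and by 3.38 for RBFOX2. These differences between antibodies were not tested. By the share of reads, the log2 difference was 0.20 for hnRNPA1, 0.46 for hnRNPI, -0.16 for RBFOX2 and -1.41 for hnRNPc. By reads, RBFOX2 thus went down as hnRNPc did. In hnRNPc lowRNase the positions per 10000 listed peaks were 18.4 in the list of 3268 peaks and 1.44 in the other replicate, against 1.04 and 1.21 in noPAGE.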

How the results depend on the processing

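Of 254 alternative values, 227 were labelled the same as the main value. For the tested comparisons, this label meant the same direction and the same side of the threshold. Values without a test have no threshold, and their label did not require the same direction. The sign turned in some of them, as for RNase amount with libraries left out. Leaving out the gel gave 0.64 without hnRNPc (adjusted p = 0.217 by the exact permutation test; 0.217 to 1.0 over all alternatives) and -0.55 to 0.39 with single libraries left out, the sign turning only without the short hnRNPc list. RecJ gave -0.070 by reads and 0.015 to 0.085 with libraries left out. Leaving out crosslinking with the gel gave 1.19 by reads and 2.21 without hnRNPc (adjusted p = 0.0379 by the exact permutation test; 0.0235 to 0.774 over all alternatives), and 0.78 to 1.72 with libraries left out. Without the gel it stayed past the threshold in 26 of 26 alternatives (0.00704 to 0.0365), at 1.06 to 1.16 with libraries left out. The number of genes called in the comparison with the gel was 0, but 1335 by reads, 292 with p below 1e-05 and 3161 without hnRNPc. For leaving out the gel, 992 genes were called by reads. In the comparison without the gel, it was 4984, and 3069 with p below 1e-05, 2840 with the replicate block and 10563 over every gene with a peak. The replicate block leaves the differences themselves as they are, 1.11 without the gel, 1.25 with it, -0.082 for leaving out the gel and 0.050 for RecJ. With the replicate block, the exact permutation p was 0.00781 without the gel (adjusted p = 0.0365), 0.141 with it, 0.984 for leaving out the gel and 0.396 for RecJ. The block changed no call of HNRNPA1. The numbers do not pair the samples, since replicate differences correlated at -0.048 to 0.038 over genes in 18 pairs of groups.

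Own against other proteins was 1.48 by reads against -0.98 by positions, and -1.19 to -0.77 with libraries left out. RNase gave -1.77 to 0.11, 10k against 50k -1.54 to 0.34 and 1k against 50k -1.25 to 0.63 with libraries left out, and without hnRNPc the last 2 were 0.75 and 1.35. At 5k the difference was -0.26 by reads and -0.11 to 0.10 with libraries left out. At 500 it was -0.11 by reads, 0.57 with p below 1e-05, 0.58 with the HNRNPA1 identifier alone, 0.52 in its stretch alone, and 0.26 to 0.44 with libraries left out. The 75 to 100 kDa region gave -2.64 by reads, 2.97 with peaks joined within 30 nt, 2.43 by covered nt, 1.01 with the HNRNPA1 identifier alone, 1.72 with only identical positions counted once, 2.67 in the stretch alone and 1.86 to 2.25 with libraries left out. Replicate overlap was 64.4% with at least 50% of the width shared, 79.9% with p below 1e-05, 23.8% after moving by 1000 nt and 83.8% in the stretch alone. Common bases with 1 library allowed to miss were 646 nt for hnRNPc, 317 nt for hnRNPI and 1194 nt for RBFOX2. Causes were not tested. The alternatives on the stretch alone and on identical positions were added after seeing the data. With 2 replicates per group and unknown depth, an absent peak is a bound set by the list and not an absence of binding.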
